A study of Mus musculus with 6 samples.

Results

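The p53 pathway was followed here through 10 genes: Trp53, which encodes p53 itself, and 9 genes known to be switched on by it, namely Trp53inp1, Cdkn1a, Mdm2, Ccng1, Sesn1, Sesn2, Gadd45a, Btg2 and Zmat3. A gene was taken as measured when at least 1 probe set carried its symbol and no other, and it was represented by the probe set with the highest mean over the 6 arrays. On this rule 9 of the 10 genes were measured, out of 18193 genes in all, and the 9 had 20 probe sets between them. The annotation used here gives the symbol Trp53 to no probe set, so that Trp53 was not analysed here.

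RNA from the proximal colon of 3 Hnf4a mutant and 3 control mice was hybridised to 6 Affymetrix mouse genome arrays, 1 array per mouse, to learn which genes change when the nuclear receptor Hnf4α is lost. The mutants carried a Cre transgene under the Villin promoter and loxP sites on both copies of Hnf4a, which limits the deletion to the intestinal epithelium, while muscle, stroma and immune cells of the tissue kept the gene. The controls were littermates that the labels call wild type. All mice were 1 year old, were kept free of specific pathogens and received ketamine (300 mg/kg) and xylazine (40 mg/kg) before death.

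p53 is a transcription factor that is stabilised by DNA damage and other stress. It then switches on genes that hold the cell cycle, repair DNA, adjust metabolism or start cell death, and it also switches on Mdm2, whose protein marks p53 for destruction and so closes a feedback loop. p53 is controlled mainly through the stability and modification of its protein, so that the RNA of its targets is often read as a sign of its activity, although many of these targets also respond to other factors. In the gut, p53 is best known for the response of crypt cells to radiation, in which Cdkn1a and Mdm2 are induced.

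Direct targets of p53 carry sites for it in or near their promoters, and promoter sequence was therefore searched for letters of that kind. RefSeq start sites (GRCm38.p6) were at hand for 7 of the 9 measured genes, 9 start sites in all, while Trp53inp1 and Zmat3 had no entry. The 250 bases before each start were searched on both strands for the p53 decamer, the 10-base unit that p53 binds as an adjoining pair, and for the pair itself with at most 1 mismatch outside its fixed bases. The decamer was present in 5 of the 9 windows, against 7.13% of 32851 windows of the same length, and the pair in 2 of the 9, against 0.0578%. The genes were chosen as known targets of p53, so these shares describe that choice and are no result of the arrays. The pairs belong to Cdkn1a and Ccng1. They are printed with the second start of Sesn1, the gene with the largest difference between the groups, which held a single decamer (capitals, the stretch of a decamer or a pair). Each of the printed pairs holds 1 mismatch, which is in capitals too.

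Cdkn1a, first start, chr17:29090729-29090978, plus strand: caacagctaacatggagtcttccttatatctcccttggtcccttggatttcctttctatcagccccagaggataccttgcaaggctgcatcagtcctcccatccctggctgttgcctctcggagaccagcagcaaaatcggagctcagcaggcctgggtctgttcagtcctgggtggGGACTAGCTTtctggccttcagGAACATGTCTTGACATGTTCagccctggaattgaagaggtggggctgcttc

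Ccng1, chr11:40755287-40755536, minus strand: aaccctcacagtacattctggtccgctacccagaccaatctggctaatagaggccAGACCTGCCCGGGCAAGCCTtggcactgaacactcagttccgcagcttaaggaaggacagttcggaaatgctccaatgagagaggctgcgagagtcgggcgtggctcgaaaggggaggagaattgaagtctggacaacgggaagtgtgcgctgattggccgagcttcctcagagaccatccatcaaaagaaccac

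Sesn1, second start, chr10:41887189-41887438, plus strand: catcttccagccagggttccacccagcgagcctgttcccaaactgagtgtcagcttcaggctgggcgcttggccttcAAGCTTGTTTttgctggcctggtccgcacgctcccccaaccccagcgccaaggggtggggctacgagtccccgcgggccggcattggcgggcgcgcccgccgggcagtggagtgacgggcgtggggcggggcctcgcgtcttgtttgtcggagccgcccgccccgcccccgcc

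In Cdkn1a the pair began 51 bases before the first start and 2841 bases before the second. In Ccng1 it began 195 bases before the start, and in Sesn1 the decamer began 173 bases before the second start. Single decamers also began 186 bases before the start of Mdm2 and 40 bases before that of Gadd45a. The HNF4 motif CAAAGTCCA was in none of the 9 windows on either strand and in 0.384% of all windows. A match is a stretch of letters and not a measured binding site, and sequence further from the start was not searched.

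Values are log2 signals after normalisation by RMA, so that a difference of 1 is a doubling of signal, and fold changes are mutant minus control. Hnf4a itself was 10.17, 10.09 and 10.15 in mutant replicates 1, 2 and 3, against 12.23, 12.01 and 11.97 in control replicates 1, 2 and 3 (log2 fold change -1.94). Y-linked Eif2s3y was at 7.85 to 8.12 in the mutants and at 2.75 to 3.16 in the controls, and Xist was at 5.03 to 5.32 in the mutants and at 9.94 to 10.96 in the controls. By their RNA the mutants were therefore male and the controls female, although the labels give female for 1 mutant, and genotype and sex cannot be told apart in any result. The 12 markers of gut epithelium summed to a linear signal of 93272 to 102156 in the mutants and 87501 to 95885 in the controls, so that gut epithelium was present on every array. Mutant replicate 2 stood apart: relative to the control mean, the median of 15 smooth muscle markers was -0.28, -3.59 and -0.47 in mutant replicates 1, 2 and 3, and that of 15 fibroblast and matrix markers -0.30, -3.11 and -0.52. All 15 smooth muscle markers were lower in the mutants on average, with a summed linear signal of 3436 to 37976 in the mutants and 43052 to 46502 in the controls, and at an unadjusted p of 0.05 from limma 1 of the 15 was lower and none higher, with none past the adjusted threshold. The 15 fibroblast and matrix markers summed to 2159 to 14590 in the mutants and 14547 to 19399 in the controls. The lists of other cell types did not all move in the same direction. All 8 measured neutrophil markers were higher on average (median log2 fold change 0.20). Of 10 macrophage markers 3 were higher and 7 lower on average (median -0.38), with 2 higher and none lower at an unadjusted p of 0.05 from limma. The T cell list had a median of -0.19 and that of enteric neurons and glia -0.28. The lists of B and plasma cells (-0.83) and endothelium (-0.69) had lower medians. The 9 measured B and plasma cell markers had medians of -0.79, -1.05 and -0.68 in mutant replicates 1, 2 and 3, and summed to 4262 to 8265 in the mutants and 10481 to 15300 in the controls, with 6 of the 9 lower at an unadjusted p of 0.05 from limma and 1 higher. Of 10 endothelial markers 8 were lower in every mutant than in any control, where 8.86% of all genes were so separated. So were 11 of the 15 smooth muscle, 6 of the 15 fibroblast and matrix and 5 of the 9 B and plasma cell markers. In these lists only 1 marker, of B and plasma cells, was separated higher. The endothelial median was -0.20, -1.39 and -0.31 in mutant replicates 1, 2 and 3. The summed endothelial signal was 465 to 977 in the mutants and 1128 to 1205 in the controls. At an unadjusted p of 0.05 from limma 2 of the 10 endothelial markers were lower and none higher. None of these markers passed the adjusted threshold, and the part of these cells in the lower signals of Trp53inp1, Sesn1, Pmaip1 and Fas was not tested. In whole tissue, fewer cells of a type and less RNA per cell cannot be told apart.

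Of the p53 targets, Trp53inp1 fell in the mutant colon. With limma and an adjusted p under 0.05 no other of the 9 measured targets was called, where 0.879% of all genes were called (0.396% of all genes lower and 0.484% higher in the mutants). At an unadjusted p of 0.05 from limma 2 were lower, Trp53inp1 and Sesn1, and none higher, where 6.18% of all genes were lower. Sesn1 had the largest difference, about 2.83-fold lower in the mutants, and missed the adjusted threshold. Cdkn1a was 1.59-fold higher on average, with 1 mutant among the controls, and the other 6 targets differed by less than 0.4 on the log2 scale. Of the 9 log2 fold changes 4 were positive and 5 negative, and their median was -0.08, against 0.05 over all genes. Mutants and controls did not overlap in 2 of the 9 targets, Trp53inp1 and Sesn1, both lower in the mutants. Over all genes 23.3% of genes were so separated, 8.86% lower and 14.5% higher, and the share among the 9 targets, 22.2%, was near this background.

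**Figure D1:**
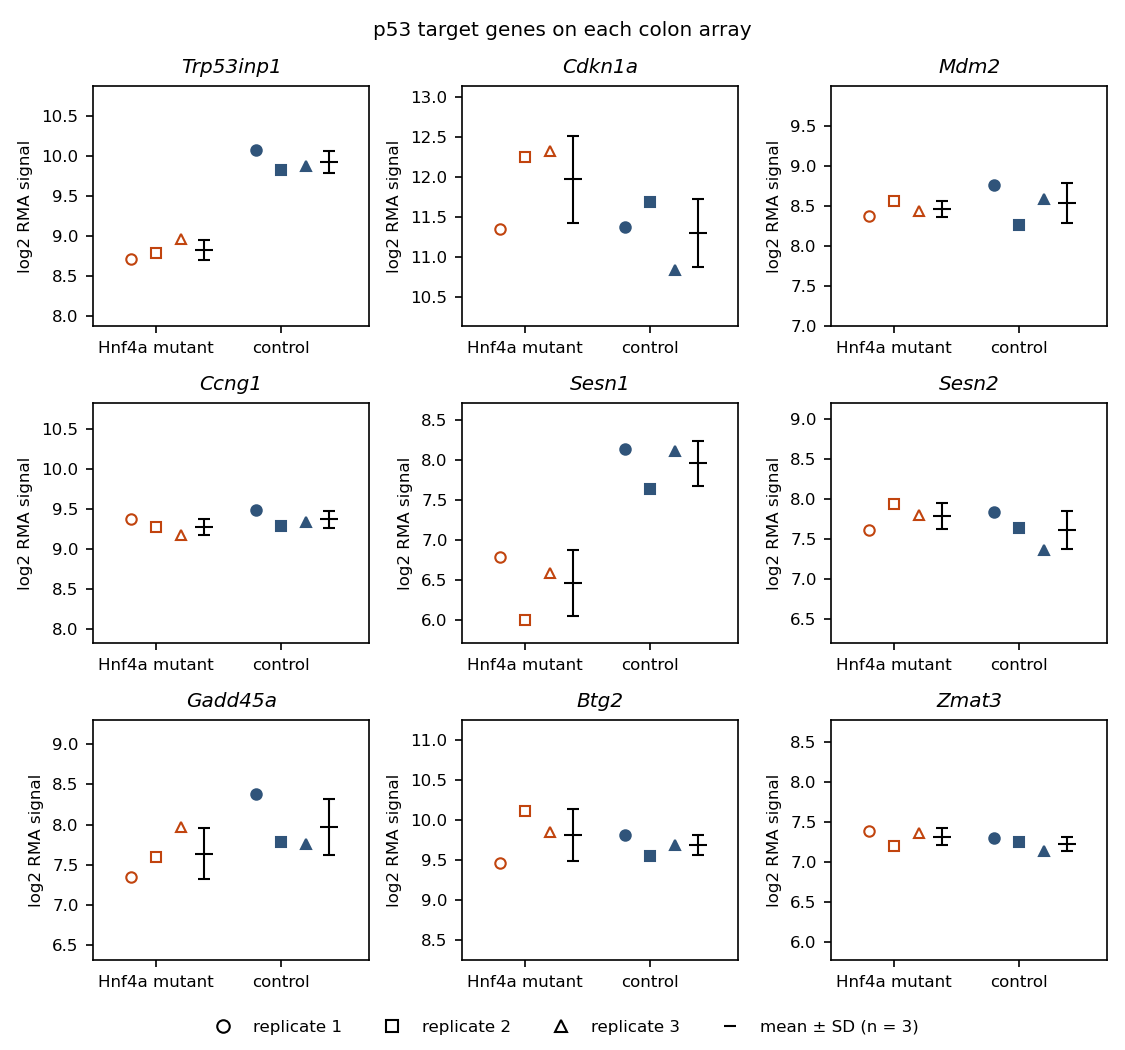
Log2 RMA signal (vertical axis, 3 log2 units in every panel) of the 9 measured p53 targets on each array (open symbols, Hnf4a mutants; filled symbols, controls; symbol shape, replicate; bars, mean ± SD, n = 3). The mutants and controls are separate for Trp53inp1 and Sesn1 and overlap in the other 7 panels, and for Cdkn1a mutant replicate 1 lies at 11.35, among the controls.

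Trp53inp1 encodes a stress-induced protein that binds p53 and its kinases and favours cell death and autophagy. Its log2 signal was 8.72, 8.78 and 8.96 in mutant replicates 1, 2 and 3, against 10.07, 9.82 and 9.88 in control replicates 1, 2 and 3. Every mutant was below every control, and the spread within each group was small (SD 0.13 in both groups, n = 3 each). The log2 fold change was -1.10 (95% confidence interval -1.37 to -0.83, standard error 0.11, adjusted p = 0.0174 from limma), a 2.15-fold lower signal in the mutants. A less intense probe set gave 6.43, 6.61 and 6.35 in the mutants and 7.41, 7.23 and 7.08 in the controls, again with no overlap, and a log2 fold change of -0.78 (adjusted p = 0.0611). An exact permutation test of 3 mice against 3 cannot give a two-sided p below 0.1, and it gave 0.1 for Trp53inp1. The call rested on few arrays. With control replicate 2 left out it held (-1.15, adjusted p = 0.0322), while with any other single array left out it was lost, with a log2 fold change between -1.17 and -1.03 and an adjusted p between 0.0512 and 0.0863. Without mutant replicate 2, where muscle and matrix markers were lowest, the log2 fold change was -1.08 (adjusted p = 0.0512 from limma). With the median of the smooth muscle markers as a covariate, an alternative chosen after the data were seen, it was -1.10 (adjusted p = 0.0993 from limma). The part of other cell types in the difference was not tested.

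Sesn1 and Sesn2 encode sestrins, which lower the activity of the growth-promoting kinase complex mTORC1 and help cells to withstand oxidants. The log2 signal of Sesn1 was 6.79, 6.003 and 6.59 in mutant replicates 1, 2 and 3, against 8.13, 7.64 and 8.12 in control replicates 1, 2 and 3. The groups did not overlap, mutant replicate 2 was the lowest of the mutants, and control replicate 2 was the lowest of the controls. The log2 fold change was -1.50 (95% confidence interval -2.05 to -0.95, standard error 0.23, adjusted p = 0.0583 from limma). Of its 3 less intense probe sets, 2 gave log2 fold changes of -1.55 and -1.65 with no overlap between the groups. The remaining one was between 3.51 and 4.09 on all arrays, close to what Y-linked probe sets gave in the controls (2.56 to 4.01), and so cannot show a difference. The medians of smooth muscle, matrix, endothelial, B and plasma cell, macrophage and enteric neuron and glia markers were also lowest in mutant replicate 2. The smooth muscle median was 0.28 and 0.47 below the control mean in mutant replicates 1 and 3. Without mutant replicate 2 the log2 fold change of Sesn1 was -1.27 (adjusted p = 0.0818 from limma). With the median of the muscle markers as a covariate, an alternative chosen after the data were seen, it was -1.19 (adjusted p = 0.209 from limma). That covariate is far from its control values in mutant replicate 2 alone, so this fit mostly sets that array aside. The part of these cells in the difference was not tested.

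Sesn2 was not separated between the groups. Its log2 signal was 7.61, 7.94 and 7.79 in mutant replicates 1, 2 and 3, and 7.83, 7.63 and 7.37 in control replicates 1, 2 and 3, so that the groups overlapped. The log2 fold change was 0.17 (95% confidence interval -0.18 to 0.53, adjusted p = 0.640). For Sesn3, a paralog that is not among the 10 genes, the probe set with the highest mean overlapped between the groups (-0.19, 95% confidence interval -0.54 to 0.16, adjusted p = 0.596). Another probe set of Sesn3 was between 7.15 and 7.36 in the mutants and between 7.41 and 7.63 in the controls, without overlap (-0.28, 95% confidence interval -0.53 to -0.02), and did not pass the adjusted threshold. Whether the sestrins differed from each other in their response was not tested.

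Cdkn1a, with the p53 pair near its first start, encodes p21, the inhibitor of cyclin-dependent kinases through which p53 stops the cell cycle. Its log2 signal was 11.35, 12.25 and 12.32 in mutant replicates 1, 2 and 3, against 11.37, 11.69 and 10.84 in control replicates 1, 2 and 3. Mutant replicates 2 and 3 were above every control, while mutant replicate 1 lay between control replicates 1 and 3. The means were 11.97 ± 0.54 in the mutants and 11.30 ± 0.43 in the controls (SD, n = 3 each), a log2 fold change of 0.67 (95% confidence interval -0.07 to 1.42, adjusted p = 0.423). Its less intense probe set showed the same order among the mutants (8.25, 9.44 and 9.50, against 8.08, 8.64 and 7.53 in the controls), with a log2 fold change of 0.98 (adjusted p = 0.374). Neither probe set passed the adjusted threshold. The interval of the first includes 0, while that of the less intense one (0.03 to 1.94) lies just above it. Genes of the cell cycle were higher in all mutants: the median of 19 markers was 0.76, 1.16 and 0.54 above the control mean in mutant replicates 1, 2 and 3, an order unlike that of Cdkn1a. All 19 were higher on average and 2, Bub1b and Cdc6, passed the test, and their linear signals summed to 7012 to 9250 in the mutants and 4511 to 5739 in the controls. Their part in the Cdkn1a signal was not tested.

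**Figure D2:**
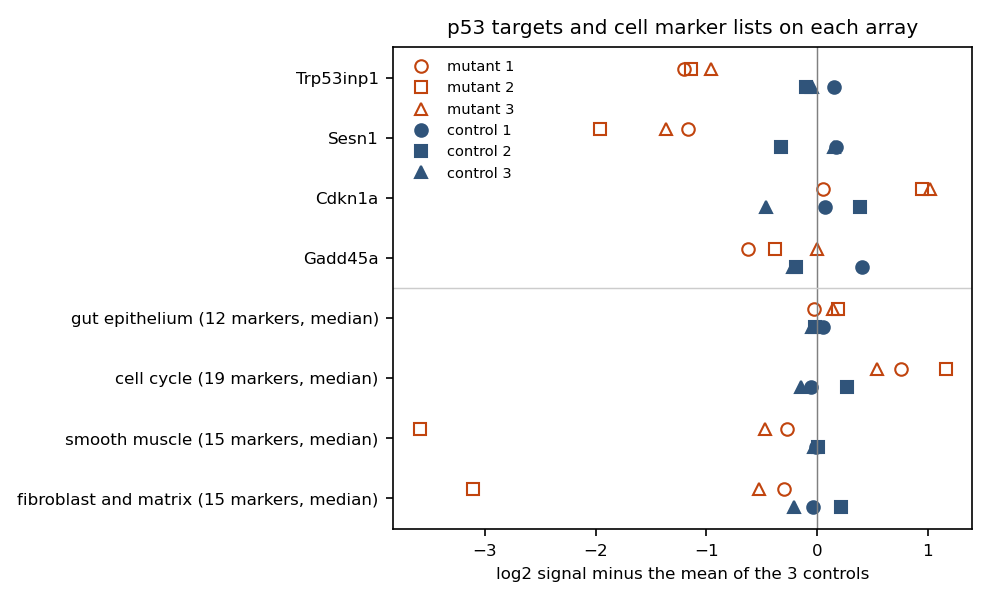
Difference of each log2 signal to the control mean (horizontal axis) for 4 p53 targets and, below the line, the median of 4 lists of cell markers (open symbols, Hnf4a mutants; filled symbols, controls; symbol shape, replicate). Mutant replicate 2 is lowest for Sesn1 and for the smooth muscle (-3.59) and fibroblast (-3.11) lists, whereas the mutants lie close together for Trp53inp1 and gut epithelium.

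Gadd45a and Btg2 also restrain cell division, and the groups overlapped for both. Gadd45a, a stress sensor that binds PCNA and p21, was 7.35, 7.60 and 7.97 in mutant replicates 1, 2 and 3 and 8.38, 7.78 and 7.75 in control replicates 1, 2 and 3. Mutant replicate 3 was above 2 of the controls, and the log2 fold change was -0.33 (95% confidence interval -0.86 to 0.19, adjusted p = 0.548). Btg2, an antiproliferative protein that speeds the decay of messenger RNA, was 9.47, 10.12 and 9.85 in the mutants and 9.81, 9.56 and 9.70 in the controls. Here the mutants held both the highest and the lowest value (log2 fold change 0.13, 95% confidence interval -0.29 to 0.54, adjusted p = 0.782). The sign of Btg2 turned without mutant replicate 2 (-0.03).

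Mdm2, Ccng1 and Zmat3 had the smallest log2 fold changes of the 9 targets. Mdm2, the ubiquitin ligase of p53, was 8.37, 8.56 and 8.43 in mutant replicates 1, 2 and 3 and 8.76, 8.26 and 8.58 in control replicates 1, 2 and 3. The mutants lay inside the range of the controls, with a log2 fold change of -0.08 (95% confidence interval -0.42 to 0.26, adjusted p = 0.836). A less intense probe set of Mdm2 gave -0.02 and the last lay within the signal of absent genes. Ccng1, cyclin G1, the other gene with a p53 pair near its start, which brings a phosphatase to Mdm2, was between 9.18 and 9.37 in the mutants and between 9.28 and 9.48 in the controls (-0.09, 95% confidence interval -0.34 to 0.15, adjusted p = 0.722), and its other 2 probe sets gave -0.06 and -0.14. Zmat3, a zinc finger protein that binds RNA, was between 7.20 and 7.39 in the mutants and between 7.14 and 7.30 in the controls (0.09, 95% confidence interval -0.15 to 0.33, adjusted p = 0.720). For these 3 genes the intervals leave out a change of 1.5-fold in either direction.

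**Figure D3:**
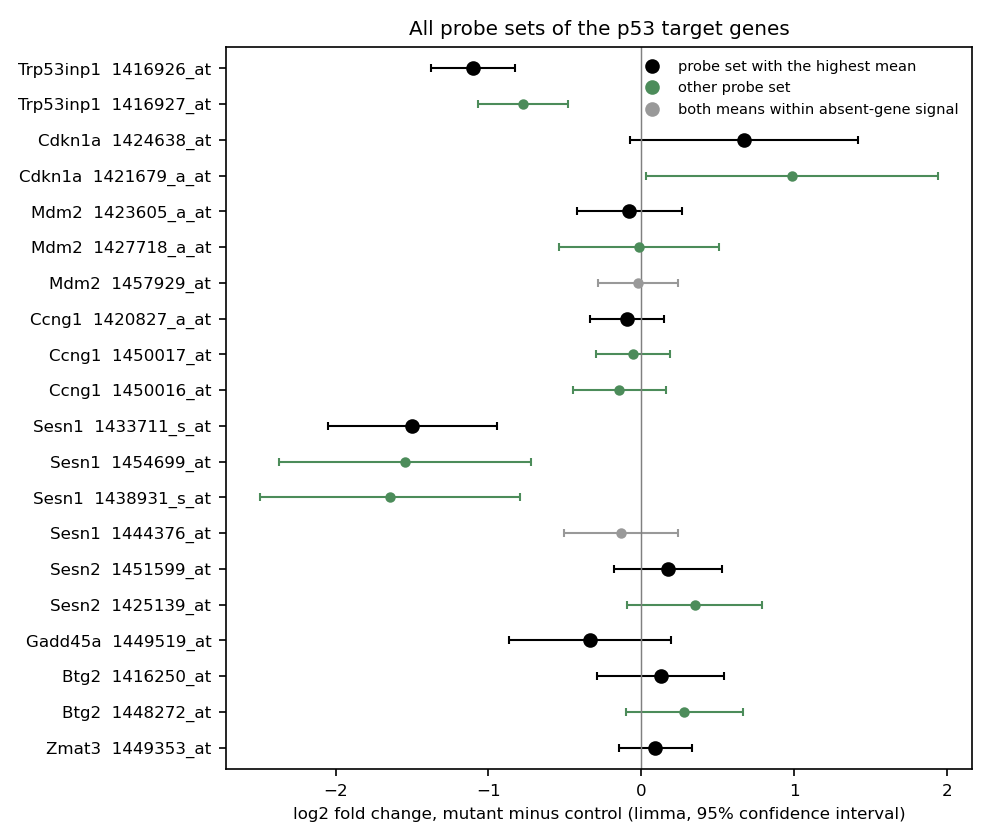
Log2 fold change, mutant minus control, with its 95% confidence interval from limma (horizontal axis) for all 20 probe sets of the 9 targets (black, the probe set with the highest mean; green, other probe sets; grey, both group means below the highest Y-linked signal of the controls). Both probe sets of Trp53inp1 and 3 of 4 of Sesn1 lie wholly below 0, the less intense probe set of Cdkn1a lies wholly above it, and those of Mdm2, Ccng1 and Zmat3 cross it.

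The order of the mice differed from gene to gene. Among the mutants, replicate 1 was the lowest for 6 of the 9 targets (Trp53inp1, Cdkn1a, Mdm2, Sesn2, Gadd45a and Btg2), replicate 2 for Sesn1 and Zmat3, and replicate 3 for Ccng1. Among the controls, replicate 1 was the highest for 8 of the 9, Cdkn1a being the exception. The 9 targets did not rise or fall as a block in any mutant: relative to the control mean, their median was -0.17, -0.03 and 0.00 in mutant replicates 1, 2 and 3, against 0.15, -0.10 and -0.05 in control replicates 1, 2 and 3.

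The wider p53 pathway was read from 4 lists of other genes, 68 of 74 of which were measured. With limma 1 of these 68 was lower past the adjusted threshold and none was higher past it (0.879% of all genes were called). The sign was positive in 33 and negative in 35, and the median log2 fold change was -0.03. By unadjusted p under 0.05, 9 genes were higher and another 9 lower, while 16.2% of all genes were one or the other. The mutants did not overlap the controls in 23 of the 68 genes (33.8%, against 23.3% of all genes), 13 of them higher and 10 lower.

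Death genes held the called gene. Pmaip1, the BH3-only protein Noxa, fell: it was 5.45, 5.50 and 5.29 in mutant replicates 1, 2 and 3, against 7.09, 6.52 and 6.52 in control replicates 1, 2 and 3. Each mutant was at least 1 unit below each control, which gave a log2 fold change of -1.30 with a standard error of 0.17 (adjusted p = 0.0384). Without control replicate 2 the call held (adjusted p = 0.0477), and without any other single array it was lost, with log2 fold changes from -1.39 to -1.10 and adjusted p between 0.0747 and 0.172. Fas, the death receptor, was tightly grouped at 6.36 to 6.46 in the mutants and 6.98 to 7.02 in the controls, and differed by -0.58 on the log2 scale with a standard error of 0.09 (adjusted p = 0.0515). Of the 15 measured genes of this list, 8 were separated between the groups, 5 higher and 3 lower in the mutants, and the median log2 fold change was 0.12. The share, 53.3%, was above the 23.3% of all genes, and the genes went both ways. It was 46.2% among the paralogs of the 10 genes. Targets in arrest, repair and metabolism had 25%, and the p53 family and its regulators 18.8%.

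None of the 16 genes of the p53 family and its regulators passed the test, nor did any of 24 targets in arrest, repair and metabolism or of 13 paralogs of the 10 genes. By unadjusted p under 0.05 limma gave 2 higher and 1 lower in the first list and 3 higher and 1 lower in the next. Among the 13 paralogs it gave 2 higher and 4 lower. Of all 18193 genes, 1822 were higher and 1124 (6.18%) lower by the same measure. The share lower among the paralogs was thus above that of all genes, a difference that was not tested. Chek1, the checkpoint kinase of replication stress, was 6.34, 6.78 and 6.42 in mutant replicates 1, 2 and 3, against 5.41, 5.76 and 5.61 in control replicates 1, 2 and 3 (log2 fold change 0.92, standard error 0.15, adjusted p = 0.0698). It was highest in mutant replicate 2, as were the cell cycle markers, and their part in the difference was not tested. Less intense probe sets of Chek1 gave smaller log2 fold changes of 0.47, 0.25, 0.12 and 0.07, and none passed the adjusted threshold. Those with 0.12 and 0.07 lay within the signal of absent genes. The mean of its probe sets gave 0.37 (adjusted p = 0.279 from limma). Ppp1r13l, which encodes iASPP, an inhibitor of p53, was at 8.18 to 8.28 in the mutants and 7.65 to 8.002 in the controls (0.45, adjusted p = 0.216). Epha2, a receptor tyrosine kinase, was 8.45, 9.08 and 8.44 in the mutants, against 7.16, 7.49 and 6.59 in the controls (1.57, standard error 0.27, adjusted p = 0.0759), and Trp53i11 had 0.82 (adjusted p = 0.105). Among the paralogs Cdkn1c, the relative of p21 named p57, was 6.78, 6.61 and 6.32 in the mutants and 7.30, 8.32 and 8.10 in the controls (-1.34, standard error 0.27, adjusted p = 0.112), the opposite sign to Cdkn1a. Tob1, a relative of Btg2, had -0.41 (adjusted p = 0.311). The median log2 fold changes of these 3 lists were 0.08, -0.12 and -0.24, against 0.05 over all genes.

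**Figure D4:**
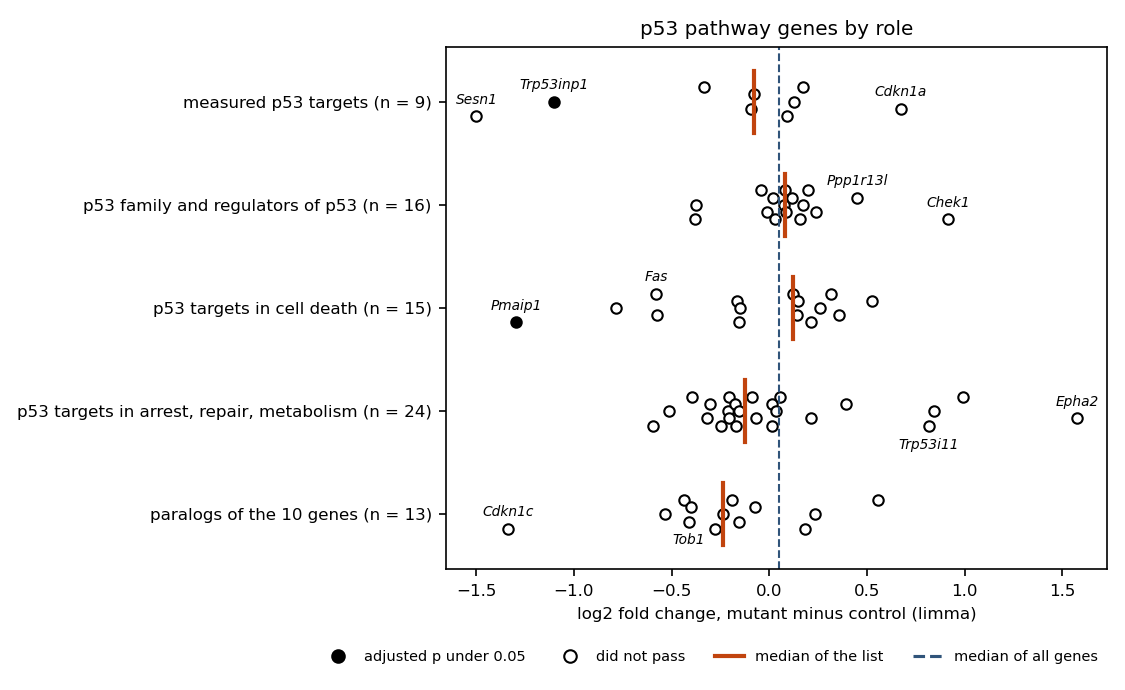
Log2 fold change, mutant minus control (horizontal axis), of the 9 measured targets and of 4 lists of other p53 pathway genes (points, genes; filled, adjusted p under 0.05 from limma; orange bars, median of the list; dashed line, median of all genes, 0.05). Filled points are Trp53inp1 (-1.10) and Pmaip1 (-1.30), and each list spreads to both sides of 0.

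The genes with the pattern most like that of Trp53inp1 were sought over the 6 arrays by the root mean square difference of their log2 signals, each minus the mean of the 3 controls. Nearest were Ppara, a nuclear receptor of fatty acid oxidation (root mean square difference 0.11), Clcn2, a chloride channel (0.13), Parp12, a mono-ADP-ribosyltransferase (0.13), Cdc14b, a phosphatase of the cell cycle (0.14), and Cat, catalase (0.15). Their log2 fold changes lay between -1.09 and -0.998, close to that of Trp53inp1 because the genes were chosen for this likeness, and they are given as a description without a test.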

How the data were processed

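The authors hybridised each RNA to 1 array and deposited log2 values made by RMA, which corrects background, normalises the arrays together by quantiles and summarises each probe set. The deposited log2 values were used as they stand. Control probe sets (64) were removed and the other 45037 were fitted in limma 3.58.1 (R 4.3.3), mutant minus control, without covariates, with Benjamini-Hochberg adjustment over all of them. The methods of the study name SAM; limma took its place because it also moderates the variance, does not resample labels and allows this adjustment. Symbols came from the platform annotation, which can be old, with 34945 probe sets carrying 1 symbol, 932 several and 9160 none. Depth does not apply to arrays; 3 arrays per group limit the precision. A p-value from limma sets the difference between the groups against the spread between mice within a group, moderated over all probe sets. The fit was tested on simulated data with 200 changed probe sets. The 10 genes and the lists were chosen with earlier results of these data known. All 10 genes are named, as are every called gene of each pathway list or, where fewer than 2 were called, the 2 with the smallest p, and the 5 genes most like each called target. Alternatives left out each array, added the replicate block, array weights, a trended prior or a filter at a mean log2 signal of 5, rescaled the arrays, adjusted over genes, averaged probe sets or, added after the data were seen, took the smooth muscle median as a covariate.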

Additional observations from a re-analysis of the deposited data

How the results depend on the processing

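Of the 9 measured p53 targets 1 was called, and 0 to 1 with 1 array left out. The count was 2, Sesn1 joining Trp53inp1, with array weights, with quantile normalization of the deposited values, with median centring and with adjustment over 1 probe set per gene, and it was 0 with the smooth muscle median as a covariate, an alternative chosen after the data were seen. Of the 68 other pathway genes 1 was called, 0 to 1 with 1 array left out, 5 with array weights and with adjustment over 1 probe set per gene, 2 with the mean of a gene's probe sets, and 0 with the replicate block and with the covariate. Over all probe sets 239 were called, 39 to 336 with 1 array left out (lowest without control replicate 1, highest without control replicate 2), 62 with the replicate block, 599 with array weights and 64 with the covariate. With 1 array left out Mdm2 lay between -0.217 and 0.0318, positive only without control replicate 1, and Btg2 between -0.0268 and 0.298, negative only without mutant replicate 2, and Btg2 was -0.12 with the covariate. Trp53inp1, Sesn1 and Cdkn1a kept their sign under every alternative run. Trp53inp1 ranged over -1.17 to -0.78, Cdkn1a over 0.44 to 0.98, and Sesn1 over -1.66 to -1.19 apart from its probe set near background (-0.13). The causes were not tested. Same-numbered arrays deviated together for number 2 only (correlations of -0.02, 0.25 and -0.15 for numbers 1, 2 and 3), and not every array correlated best with its own number, so the numbers were not taken as pairs. With the replicate block 1 target was again called, Sesn1 in place of Trp53inp1: Trp53inp1 had an adjusted p of 0.0746 and Sesn1 of 0.0350.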

Other observations

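Among the 68 other pathway genes, 3 were more than 0.8 below both other mutants in mutant replicate 2, and none was as far above them; they were singled out after their values were seen. Dram1, a lysosomal protein that takes part in autophagy, was 6.50, 4.16 and 6.35 in mutant replicates 1, 2 and 3, against 6.78, 6.62 and 5.98 in control replicates 1, 2 and 3. Phlda3, an inhibitor of Akt signalling, was 7.59, 6.27 and 7.55 in the mutants and 7.65, 7.88 and 7.42 in the controls, and Ak1, adenylate kinase, was 6.67, 5.72 and 6.78 in the mutants and 6.65, 6.75 and 6.68 in the controls. Mutant replicates 1 and 3 lay inside the range of the controls except for replicate 3 in Ak1, which was just above it, and none of the 3 genes passed the test (unadjusted p above 0.05 in each). The smooth muscle and fibroblast markers were lowest on the same array, and their part in these values was not tested.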
